A study of Mus musculus with 4 samples.

Results

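Differentiating myocytes were 365 of the 20850 cells that passed the limits on genes and mitochondrial transcripts in 4 single-cell RNA-seq (scRNA-seq) libraries of sorted mouse satellite cells, the stem cells of skeletal muscle. A cell was taken as a differentiating myocyte when its barcode held 1000 to 5000 detected genes, at most 8% mitochondrial UMIs, at least 3 UMIs of Myog and at least 1 UMI in 1 or more of Tmem8c, Gm7325, Actc1 and Tnnt2. A UMI, or unique molecular identifier, is the tag that marks a single captured transcript. The 4 genes beside Myog are called partner genes here. The rule rests on measured levels of these 5 genes in these cells, so that their levels, and all ratios between myocytes and other cells, are descriptions.

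Satellite cells lie quiescent under the sheath of the muscle fibre and express Pax7. When muscle is damaged they divide as myoblasts that express Myf5 and Myod1, and then leave the cell cycle, switch on Myog and fuse into fibres. Myog encodes myogenin, the transcription factor of terminal differentiation. Tmem8c and Gm7325 encode myomaker and myomixer, the membrane proteins that carry out fusion, while Actc1 encodes cardiac actin and Tnnt2 cardiac troponin T, which embryonic and regenerating muscle use in its first sarcomeres. In Duchenne muscular dystrophy (DMD), loss of dystrophin makes fibres fragile, and cycles of damage and repair call on satellite cells throughout life.

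The B10 library came from C57/Bl10ScsSn mice aged 15 weeks and was the control of the mdx library, from C57BL/10ScSn-Dmdmdx mice aged 11 weeks. The DBA library came from DBA/2 mice aged 13 weeks and was the control of the D2-mdx library, from D2.B10-Dmdmdx mice aged 14 weeks. Both DMD strains carry the mdx allele of Dmd, which stops the full-length dystrophin protein, on different genetic backgrounds. Each library pooled the lower hindlimb cells of 2 male mice, sorted as positive for α7-integrin and VCAM1 and negative for Cd11b, Sca1, Cd45 and Cd31, and no injury or treatment is given in the labels. There was 1 library for each strain and hence no replicate, so no test was run, and genotype, age and library cannot be told apart within a pair. The gate on VCAM1 set which myocytes could be captured. Intervals are 95% counting intervals (exact Poisson for levels, Clopper-Pearson for shares, conditional binomial for ratios), and they cover counting error only, not the spread between cells or mice.

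The libraries held 43542853 to 75482888 UMIs. Myocytes were deeper than the other kept cells, with medians of 21844, 15406, 19514 and 15840 UMIs in B10, mdx, DBA and D2-mdx against 8500, 7059, 10451 and 6680. No myocyte was among the predicted doublets in B10 and DBA, while 6 were in mdx and 5 in D2-mdx. Of all myocyte barcodes, 1 also occurred in another library (between B10 and mdx), where it marked a cell that was no myocyte. Markers of another cell type (pericytes, endothelial cells, glia or white blood cells) reached 5 UMIs in 0 of 6 B10, 8 of 172 mdx, 0 of 7 DBA and 14 of 180 D2-mdx myocytes. Fibroblast and erythrocyte markers were not part of this count. Erythrocyte markers reached 5 UMIs in 1 mdx and 1 D2-mdx myocyte, and fibroblast markers in 0 of either library. The endothelial, glial, white blood cell and fibroblast markers were all at 0 UMIs in the myocytes of both controls.

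Differentiating myocytes were more frequent among the kept cells of the DMD libraries than of the controls. They were 6 of 4762 kept cells in B10 (0.126%, 0.0463 to 0.274%) and 172 of 6669 in mdx (2.58%, 2.21 to 2.99%). They were 7 of 3370 in DBA (0.208%, 0.0836 to 0.428%) and 180 of 6049 in D2-mdx (2.98%, 2.56 to 3.44%). The intervals of control and DMD libraries lie apart in both backgrounds, and those of mdx and D2-mdx overlap. The control shares depended on the rule, at 0.0424% in B10 and 0.0297% in DBA when cells were thinned to 3000 UMIs first, and at 0.623% in DBA with no partner gene required, and were below those of the DMD libraries in each case. Because the control values rest on so few cells, the myocytes of mdx and D2-mdx carry nearly all of the detail that follows.

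**Figure D1:**
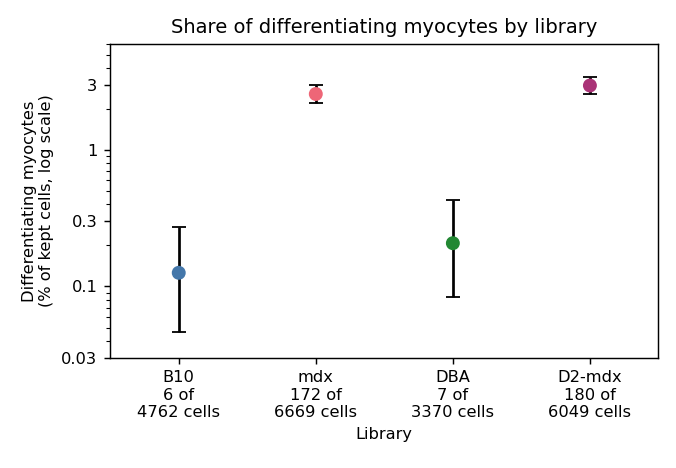
Share of differentiating myocytes among kept cells (%, log scale) in each of the 4 libraries, with 95% Clopper-Pearson intervals as bars. The mdx and D2-mdx libraries sit at 2.58% and 2.98%, and the B10 and DBA libraries at 0.126% and 0.208%, with no overlap of the control and DMD intervals.

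Most myocytes held Myog far above the minimum of the rule. Myog ran from 3 to 100 UMIs per cell in B10 with a median of 58.5, from 3 to 251 in mdx with a median of 53, from 11 to 80 in DBA with a median of 50, and from 3 to 302 in D2-mdx with a median of 29.5. At the edge of the rule, 13 of the 25 kept cells with exactly 3 Myog UMIs had a partner gene and were taken, while 10 of the 56 cells with exactly 2 Myog UMIs had a partner gene and were not. The share of kept cells with a partner gene was 4.94% without a Myog UMI, 12.3% at 1 UMI, 64.6% at 10 to 19 UMIs, 98.8% at 50 to 99 UMIs, and 100% in the 74 cells at 100 or more. These shares pool the libraries and are not thinned, and median depth differed too, at 8353, 8395, 11705, 16623.5 and 20977 UMIs in the same order. A further 3 B10, 40 mdx, 14 DBA and 56 D2-mdx cells had 3 or more Myog UMIs but no partner gene, with median Myog of 5, 10.5, 10.5 and 8 UMIs. In kept cells with markers of another type and no Pax7, Myf5 or Myod1 UMI, after thinning to 3000 UMIs, Myog was detected in 0 of 98 B10 cells, which allows up to 3.06%, in 1.25% of mdx, in 0 of 436 DBA cells, which allows up to 0.688%, and in 2.44% of D2-mdx cells.

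**Figure D2:**
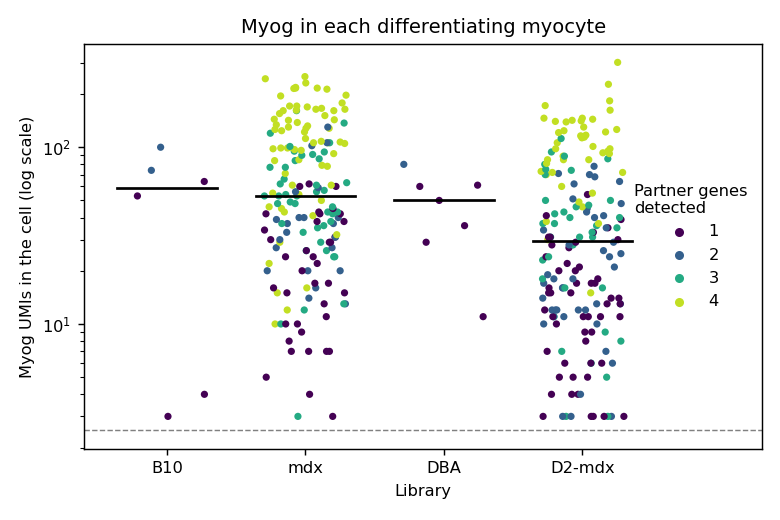
Myog UMIs (log scale) in each differentiating myocyte by library, with the colour giving how many of the 4 partner genes had a UMI, the bar the median and the dashed line the lower limit of the rule. Cells with all 4 partner genes fill the upper range of mdx and D2-mdx and are absent from B10 and DBA.

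The control myocytes held Myog and Tmem8c but almost none of the sarcomere genes of the rule. Tmem8c was detected in 6 of 6 B10, 142 of 172 mdx, 7 of 7 DBA and 139 of 180 D2-mdx myocytes. Gm7325 was detected in 1, 112, 0 and 126 of them, Actc1 in 0, 118, 1 and 73, and Tnnt2 in 1, 114, 0 and 97, in the same order. All 4 partner genes were found together in 68 mdx and 45 D2-mdx myocytes and in 0 control myocytes. In CPM, the UMIs of a gene per 1000000 UMIs summed over the myocytes of a library, Myog stood at 2463, 4494, 2280 and 2845, Tmem8c at 265, 536, 244 and 321, Actc1 at 0, 1806, 6.97 and 606, and Tnnt2 at 16.5, 596, 0 and 391. Tmem8c was the only partner gene in 4 of 6 B10, 17 of 172 mdx, 6 of 7 DBA and 23 of 180 D2-mdx myocytes. Its presence in the controls is thus largely set by the rule, as that of Myog is in every library. Of the 5 genes that define the label, Myog and Tmem8c were present in all 4 libraries. The sarcomere partners were nearly limited to the DMD myocytes, with 2 UMIs of Tnnt2 in B10 and 1 UMI of Actc1 in DBA.

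On GRCm38, Myog lies at chr1:134289989-134292548 on the + strand, Tnnt2 at chr1:135836354-135852260 on the + strand, Actc1 at chr2:114047282-114053548 on the − strand, Tmem8c at chr2:27061636-27072179 on the − strand and Gm7325 at chr17:45600971-45602102 on the − strand. The GENCODE annotation names the last pair Mymk and Mymx. The promoters of Myog, Tnnt2 and Actc1 among the rule genes, and of listed muscle genes, were searched for the letters that myogenic factors of the MyoD family bind (the E-box CANNTG and its form CAGCTG) and those that MEF2 factors bind (the MEF2 motif, searched as CTA, any 4 bases and TAG). All 3 motifs read the same on both strands, and CAGCTG is also counted as CANNTG. Those of Tmem8c and Gm7325 were not analysed here. The stretch of 250 bases before the RefSeq start of the gene was taken from RefSeq on GRCm38.p6, and this start can differ from the GENCODE start, as it does for Myog and Actc1. Shown are a regulator, a sarcomere gene of the rule, a subunit of the acetylcholine receptor and a gene that followed the partner genes closely, with the matches in capitals and written 5′ to 3′ on the strand of the gene.
Myog, chr1:134289754-134290003, + strand: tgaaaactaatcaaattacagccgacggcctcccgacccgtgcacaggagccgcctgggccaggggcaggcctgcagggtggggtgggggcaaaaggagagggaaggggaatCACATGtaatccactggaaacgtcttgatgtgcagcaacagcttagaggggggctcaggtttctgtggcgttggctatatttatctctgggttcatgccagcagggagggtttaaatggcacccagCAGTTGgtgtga
Tnnt2, chr1:135836084-135836333, + strand: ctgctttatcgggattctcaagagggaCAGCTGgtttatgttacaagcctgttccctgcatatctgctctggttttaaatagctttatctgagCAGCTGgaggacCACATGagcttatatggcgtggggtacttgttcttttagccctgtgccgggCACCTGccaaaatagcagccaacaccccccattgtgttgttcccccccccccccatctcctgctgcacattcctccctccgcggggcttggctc
Chrna1, chr2:73580339-73580588, − strand: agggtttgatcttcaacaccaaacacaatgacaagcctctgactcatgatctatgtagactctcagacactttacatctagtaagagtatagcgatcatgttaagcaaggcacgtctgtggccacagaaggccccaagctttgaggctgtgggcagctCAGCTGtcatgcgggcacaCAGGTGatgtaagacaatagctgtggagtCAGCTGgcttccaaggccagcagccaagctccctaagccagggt
Klhl41, chr2:69669870-69670119, + strand: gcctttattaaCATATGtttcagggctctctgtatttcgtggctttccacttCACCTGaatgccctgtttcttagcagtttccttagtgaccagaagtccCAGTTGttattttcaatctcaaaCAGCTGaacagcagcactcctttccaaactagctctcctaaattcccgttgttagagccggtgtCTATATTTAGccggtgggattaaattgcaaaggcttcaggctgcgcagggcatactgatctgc

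The stretch before Myog held 2 matches to CANNTG, whose first bases lie 138 and 12 bases before the start. Tnnt2 held 4 matches to CANNTG, of which those at 223 and 157 bases are CAGCTG. The stretch before Actc1, which is not printed, held 0 matches to CANNTG and 0 to the MEF2 motif. Chrna1 held CAGCTG at 92 and 44 bases before the start, and Klhl41 held CAGCTG at 127 bases and the MEF2 motif at 63 bases. Over the 50 windows of 40 listed sarcomere genes, 34.0% held CAGCTG, 82.0% CANNTG and 8% the MEF2 motif, against 13.0%, 66.2% and 3.20% of all 32841 windows of the same length. None of the 18 windows of genes of satellite cell quiescence held CAGCTG. A match is a description of the letters and not a binding site.

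Next, myocytes were compared with satellite cells of their own library, taken as the 4352 B10, 4010 mdx, 2725 DBA and 3256 D2-mdx kept cells with at least 1 Pax7 UMI and no UMI of Myog, Mki67 or Top2a. A few cells of another type with free Pax7 RNA can be among them. Genes with at least 50 CPM in the myocytes or the satellite cells were set side by side as log2 ratios of CPM, and a ratio of 2-fold or more is described as past the fold. The share of genes at least 2-fold higher in myocytes was 18.7%, 11.9%, 16.1% and 10.0% in B10, mdx, DBA and D2-mdx, and the share at least 2-fold lower was 16.8%, 15.5%, 19.8% and 14.7%, so that 35.5%, 27.3%, 35.9% and 24.7% were past the fold either way.

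Several positive regulators of the myogenic programme were higher in the myocytes of all 4 libraries, and nearly all of their measured inhibitors were lower. Beside Myog, 5 of 11 measured myogenic regulators were at least 2-fold higher in B10, 6 of 10 in mdx, 6 of 11 in DBA and 5 of 9 in D2-mdx, with 2 lower in each. Myod1, the determination factor upstream of Myog, was at 744, 582, 864 and 697 CPM in B10, mdx, DBA and D2-mdx, against 101, 90.7, 128 and 113 CPM in satellite cells. Its log2 ratio lay between 2.62 and 2.88, a narrow range over the 4 libraries. Rbm24, an RNA-binding protein that steers muscle splicing, had log2 ratios of 4.27, 4.01, 4.98 and 4.13.

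The lower regulators were those of the stem cell state. Pax7 stood at 116, 27.0, 6.97 and 47.0 CPM in B10, mdx, DBA and D2-mdx, and the satellite cells had been chosen by it. Myf5, the factor of early commitment, had log2 ratios of -5.84, -4.97, -4.90 and -3.92. Among the inhibitors of myogenic factors, 9 of 10 measured genes were at least 2-fold lower in B10, 9 of 10 in mdx, 9 of 9 in DBA and 9 of 10 in D2-mdx, and none was at least 2-fold higher. Id3, which binds the partners of MyoD and keeps them from DNA, had log2 ratios of -4.09, -3.38, -3.83 and -3.42. Msc, the repressor musculin, had ratios of -3.49, -4.08, -4.92 and -3.81.

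Cdkn1c was the gene of cell cycle exit in the ranking against satellite cells. It encodes the cyclin-dependent kinase inhibitor p57 and reached 3298, 8424, 5361 and 4485 CPM in B10, mdx, DBA and D2-mdx. In satellite cells it was at 20.9, 487, 20.7 and 178 CPM, so that its log2 ratio was 7.30 and 8.02 in the controls but 4.11 and 4.65 in the DMD libraries. Rb1, the retinoblastoma protein that holds differentiated muscle out of the cycle, had log2 ratios of 2.81, 2.51, 1.61 and 1.87. Of the whole list of cell cycle exit, 5 of 13 genes were at least 2-fold higher in B10, 3 of 14 in mdx, 4 of 12 in DBA and 3 of 14 in D2-mdx.

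The ranking by the smallest ratio over the 4 libraries gave the genes that set myocytes apart in every library. Above satellite cells, beside those described, were Fndc5, the precursor of the hormone irisin, with log2 ratios of 4.98, 5.02, 5.38 and 5.21 in B10, mdx, DBA and D2-mdx, Lmnb2, which encodes lamin B2, with 4.3, 4.69, 3.26 and 3.40, Arpp21 with 4.62, 3.6, 6.78 and 3.6, the repressor Zbtb18 with 3.61, 3.55, 3.78 and 3.07, and the nucleoside transporter Slc29a1 with 2.46, 2.95, 2.61 and 2.65. Below them were mostly genes of secreted and matrix proteins, namely Nppc, the C-type natriuretic peptide, Adamts5, a matrix protease, Chodl, the lectin chondrolectin, the matrix proteins Prelp and Dpt, and the extracellular peroxidase Gpx3. Chodl was at 116, 46.8, 69.7 and 59.6 CPM in myocytes against 1476, 1278, 1454 and 1028 CPM in satellite cells. All 17 of these genes outside the rule lay on the same side in each library, which the ranking itself asks for.

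**Figure D3:**
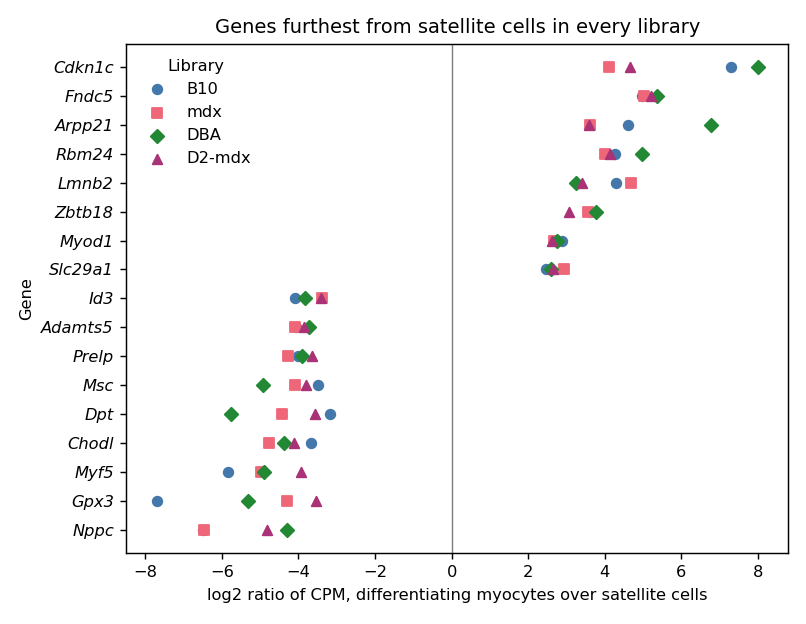
Log2 ratio of CPM in differentiating myocytes over satellite cells of the same library for the 17 ranked genes outside the rule, 1 point per library. The 8 upper genes reach down to 2.46 (Slc29a1 in B10) and the 9 lower genes up to -3.17 (Dpt in B10), and Cdkn1c shows the gap between control (7.30 and 8.02) and DMD libraries (4.11 and 4.65).

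Sarcomere genes outside the rule were higher than in satellite cells mainly in the DMD libraries. Of the measured genes of thin filament and Z disc, 12 of 15 were at least 2-fold higher in mdx and 10 of 15 in D2-mdx, with median log2 ratios of 1.89 and 1.89 against 0.07 and 0.06 over all genes tested, and 4 of 9 were in B10 and 5 of 10 in DBA. Of thick filament genes and titin, 5 of 7 were higher in mdx and 3 of 5 in D2-mdx, and 1 of 3 in B10 and 2 of 4 in DBA. Acta1, the actin of adult skeletal muscle, had 57.9, 464, 62.7 and 722 CPM in B10, mdx, DBA and D2-mdx. Ttn, which encodes the giant spring titin, had 41.3, 1039, 62.7 and 1051 CPM, from 5 UMIs in B10 and 9 in DBA. The 5 UMIs in B10 lay in the cells with 3 and 4 Myog UMIs, and 7 of the 9 in DBA lay in 1 cell. Acta2, the smooth muscle actin that young myotubes use, was high in all 4 libraries, at 2827, 2733, 3339 and 2275 CPM.

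Of the measured genes of the acetylcholine receptor and synapse, 2 of 4 were at least 2-fold higher than in satellite cells in B10, mdx and DBA each, and 3 of 5 in D2-mdx. Chrna1, the alpha subunit of the acetylcholine receptor, was at 496, 457, 286 and 519 CPM against 105, 110, 77.7 and 129 CPM in satellite cells. Chrng and Chrnd, the gamma and delta subunits, reached 42.8 and 20.5 CPM in mdx and 55.9 and 27.9 CPM in D2-mdx, with 0 or 1 UMI each in both controls, and Chrne, the adult subunit, had 1 UMI in all myocytes together. Atp2a1, the calcium pump SERCA1, was at 496, 405, 126 and 166 CPM in B10, mdx, DBA and D2-mdx, between 2.12 and 3.79 above satellite cells on the log2 scale. In B10, 33 of its 60 UMIs came from 1 cell. Mylk4, a kinase of the myosin light chain family, was at 198, 96.0, 62.7 and 37.1 CPM against 0.179, 0.123, 0.0657 and 0.123 CPM in satellite cells.

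Fusion genes outside the rule were at least 2-fold higher for 4 of 9 in B10, 3 of 12 in mdx, 2 of 9 in DBA and 1 of 10 in D2-mdx. Over all genes tested the shares were 18.7%, 11.9%, 16.1% and 10.0%. The counts in DBA and D2-mdx lie near these shares and are no result about the list there. Jam3, an adhesion molecule of the myoblast surface, had log2 ratios of 1.95, 1.96, 1.36 and 1.53. Genes of muscle metabolism were at least 2-fold higher for 3 of 7 in B10, 5 of 8 in mdx, 3 of 8 in DBA and 3 of 8 in D2-mdx. Eno3, the enolase of muscle, was at 8.27, 119, 13.9 and 423 CPM, with log2 ratios over satellite cells of 2.49 in mdx and 3.67 in D2-mdx.

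Genes of oxidative phosphorylation were higher by a smaller ratio, with 6, 11, 8 and 10 of 18 at least 2-fold higher in B10, mdx, DBA and D2-mdx, none lower, and medians of 0.78, 1.04, 0.91 and 1.10. Quiescence genes were lower in each library, with 15 of 21, 16 of 21, 15 of 23 and 16 of 20 at least 2-fold lower, beside the choice of the reference by Pax7. Matrix genes were at least 2-fold lower for 7 of 16 in B10 and 12 of 16 in DBA, and for 21 of 23 in mdx and 18 of 24 in D2-mdx. Immediate early genes, the rapid response to stress and to tissue dissociation, were lower for 15 of 23, 21 of 22, 19 of 23 and 21 of 22. Their summed level in myocytes was 19410, 9199, 12471 and 8023 CPM in B10, mdx, DBA and D2-mdx.

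Dmd itself was lower in myocytes than in satellite cells of every library, including the controls. It stood at 157, 29.1, 41.8 and 21.5 CPM in B10, mdx, DBA and D2-mdx, from 19, 81, 6 and 63 UMIs, and at 328, 142, 296 and 128 CPM in satellite cells. The 3′ libraries count transcripts and do not read the mdx mutation, so that these levels check no genotype. Dag1, which encodes dystroglycan, the membrane partner of dystrophin, was at 1992, 837, 1331 and 859 CPM and remained within 2-fold of satellite cells. Sspn, sarcospan, was at 165 CPM in B10 and 81.7 in mdx but 41.8 in DBA and 24.9 in D2-mdx, and satellite cells showed the same order with 112, 94.9, 41.9 and 36.8 CPM.

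To see which earlier states myocytes still shared, the cells were thinned to 3000 UMIs each. Pax7 was then detected in 7.56% of mdx (4.09 to 12.6%) and 12.8% of D2-mdx myocytes (8.28 to 18.6%), in 3 of 6 B10 and in 0 of 7 DBA myocytes, against 90.7%, 78.0%, 83.1% and 80.4% of satellite cells in B10, mdx, DBA and D2-mdx. Without thinning the shares of mdx and D2-mdx were 25.6% and 38.3%. Myod1 was detected in 78.5% of mdx and 79.4% of D2-mdx myocytes, in 5 of 6 B10 and 6 of 7 DBA myocytes, and in 16.8 to 25% of satellite cells. Cdkn1c was found in 95.9% of mdx and 80.0% of D2-mdx myocytes. The comparison cells of other types, chosen to lack Pax7, Myf5 and Myod1, cannot give a background for these genes, while for Cdkn1c they gave 21.6% and 16.1%, at median depths of 6989 and 6817 UMIs before thinning.

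Traces of mitosis were found in more of the D2-mdx myocytes than of the mdx myocytes. After thinning, 2 or more mitosis genes were detected in 4.07% of mdx (1.65 to 8.21%) and 19.4% of D2-mdx myocytes (13.9 to 26.0%), and the intervals do not overlap. In cells of another type the shares were 2.25% and 5.04%, so that the mdx value lies near its background, and in cycling progenitors they were 90.4% and 92.9%. Mki67 or Top2a was detected in 2.91% of mdx (0.950 to 6.65%) and 7.78% of D2-mdx myocytes (4.32 to 12.7%), and these intervals overlap. Summed over 30 genes, the mitosis list stood at 207 CPM in mdx and 441 CPM in D2-mdx, and the S phase list of 28 genes at 382 and 486 CPM. In B10 the S phase list reached 1265 CPM, but 128 of its 153 UMIs came from the 2 cells with 3 and 4 Myog UMIs, and without them it was 321 CPM (208 to 475).

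The myocytes of mdx and D2-mdx were then ordered by how many of the 4 partner genes remained after thinning to 3000 UMIs. Myog and the partner genes chose the cells, so their levels along these classes are a description. The classes with 0, 1, 2, 3 and 4 partner genes held 29, 38, 33, 43 and 29 mdx cells and 41, 65, 30, 24 and 20 D2-mdx cells. Median Myog was 20, 31.5, 50, 96 and 143 UMIs in mdx and 13, 22, 33, 82.5 and 123 in D2-mdx, counted before thinning, at median depths of 14357, 12766.5, 14991, 18135 and 19242 UMIs in mdx and 15660, 14419, 12977.5, 18198 and 17919 in D2-mdx. Sarcomere genes outside the rule summed to 5655, 5820, 7883, 10985 and 12944 CPM in mdx and to 6007, 7542, 12800, 10970 and 16190 CPM in D2-mdx. In the D2-mdx class with 2 partner genes, 1897 of the 5787 sarcomere UMIs came from 1 cell, and without it the sum was 8851 CPM. The sum over cells with 3 or 4 partner genes was 2.06 times (2.00 to 2.12) that over cells with 0 or 1 in mdx and 1.95 times (1.90 to 2.00) in D2-mdx. Over cells, Myog and the sarcomere sum had a Spearman correlation of 0.36 in 172 mdx and 0.38 in 180 D2-mdx cells, which share their library and their depth.

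The sarcomere genes differed in how far they differed between the classes. Tnni1, the slow troponin I, was at 0 CPM without partner genes and at 421 CPM with 4 of them in mdx, and at 4.53 and 162 CPM in D2-mdx. Klhl41, a protein that stabilizes the thin filament, was at 14.4, 11.1, 65.3, 201 and 276 CPM in mdx and at 9.05, 26.6, 148, 202 and 291 CPM in D2-mdx. Klhl41 was thus low up to 1 partner gene and high from 3 on in both libraries. Between the classes with 3 or 4 and with 0 or 1 partner genes, Acta1 had a log2 ratio of 3.97 (3.56 to 4.40) in mdx and 2.69 (2.53 to 2.85) in D2-mdx. Ttn had the smaller ratios of 0.99 (0.86 to 1.12) and 0.98 (0.86 to 1.09), and stood at 710 and 825 CPM in cells with 0 or 1 partner genes. Neb, the nebulin ruler of the thin filament, had ratios of 1.58 and 1.94, and Myh3, the embryonic myosin, of 2.48 and 3.14.

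Cdkn1c was higher with 3 or 4 partner genes than with 0 or 1 in both libraries. It was at 3962, 4198, 8733, 10384 and 12785 CPM in mdx and 1038, 3545, 5793, 8709 and 7210 CPM in D2-mdx, and the D2-mdx level was lower in each class. Rb1 had log2 ratios of 1.32 and 1.11 between the upper and lower classes and Cdkn1a, the inhibitor p21, of 0.50 and 0.89. Fndc5 had ratios of 1.24 and 2.47, and Atp2a1 of 1.65 and 1.57. In contrast, Chrna1 differed little, with ratios of 0.02 (-0.16 to 0.20) in mdx and 0.25 (0.08 to 0.42) in D2-mdx. Myod1 was at 819 CPM without partner genes and 440 CPM with 4 of them in mdx, a ratio of -0.65 (-0.81 to -0.49), whereas in D2-mdx its ratio was 0.06 (-0.08 to 0.21).

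Genes of the stem cell state were lower in cells with more partner genes. Pax7 was at 81.4 CPM without partner genes and 5.22 CPM with 4 of them in mdx, and at 72.4 and 7.94 CPM in D2-mdx. Vcam1, whose protein was used for the sort, had ratios of -2.81 and -2.68, and Heyl, a target of Notch signaling, of -2.48 and -3.21. Id3 had ratios of -2.37 and -1.39. Igfbp5, a secreted binder of insulin-like growth factors, had ratios of -2.39 and -2.40, with 136 CPM without partner genes and 13.9 CPM with 4 of them in mdx, and 293 and 63.5 CPM in D2-mdx. The direction between the upper and lower classes was the same in both libraries for these 5 genes.

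**Figure D4:**
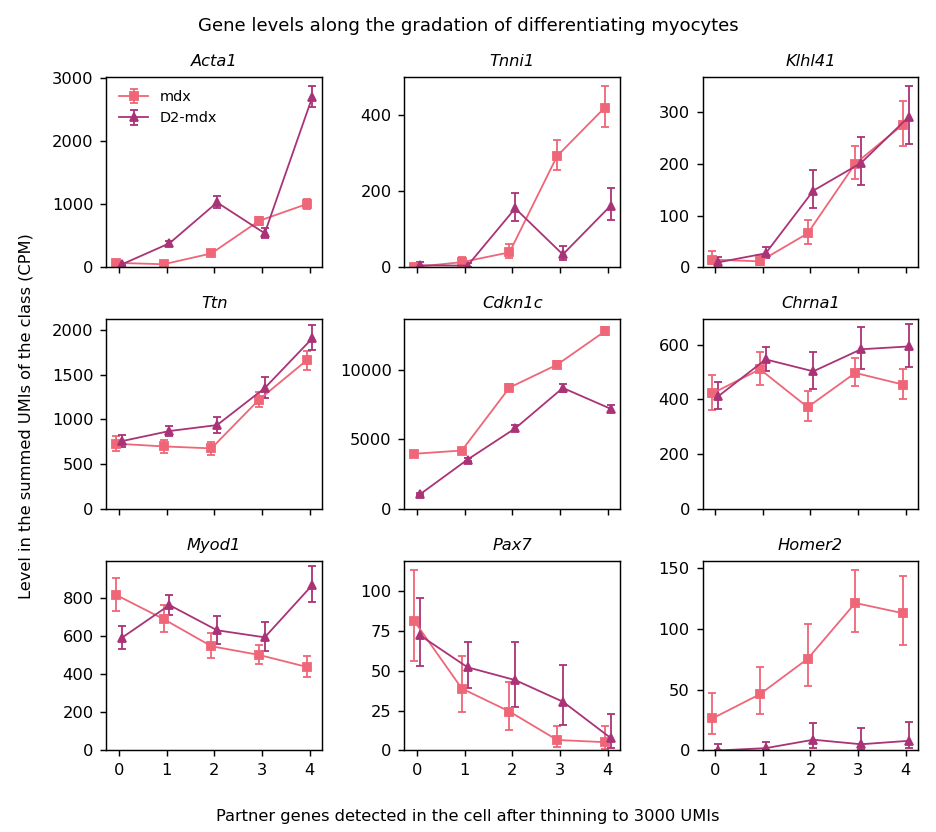
Level of 9 genes (CPM of the summed UMIs of a class) against the number of partner genes detected after thinning to 3000 UMIs, in mdx and D2-mdx, with 95% Poisson intervals as bars. Acta1, Tnni1, Klhl41 and Cdkn1c are higher with 3 or 4 partner genes than with 0 or 1, Ttn is already at 710 and 825 CPM with 0 or 1 partner genes, Chrna1 differs little, Pax7 is lower, and Homer2 is at most 8.85 CPM in every class of D2-mdx.

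DMD and control myocytes were next compared within each background. Of 3342 genes with at least 50 CPM in B10 or mdx myocytes, 9.52% were at least 2-fold higher and 14.8% at least 2-fold lower in mdx, 24.3% in all. Of 3179 genes in DBA or D2-mdx myocytes, 11.3% were higher and 12.3% lower in D2-mdx, 23.6% in all. With TMM library sizes, which moved the median log2 ratio of all genes from -0.12 to 0.22 and from -0.06 to 0.21, the higher genes were 65.1% instead of 39.2% of those past the fold in mdx and 70.9% instead of 48.0% in D2-mdx. The control side of each ratio rests on 120970 UMIs in B10 and 143451 in DBA. These shares past the fold do not ask that the counting interval lie apart from 0.

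Sarcomere genes were on the DMD side in both backgrounds under all 3 scalings tried (total UMIs, TMM and DESeq2 size factors). Of the thin filament and Z disc genes outside the rule, 8 of 15 were at least 2-fold higher in mdx than in B10 and 11 of 15 in D2-mdx than in DBA, and none was lower, with medians of 1.05 and 1.99 against -0.12 and -0.06 over all genes tested. Of the thick filament genes and titin, 5 of 7 and 3 of 6 were higher and 1 was lower in each. Ttn had a log2 ratio of 4.65 (3.43 to 6.28) in mdx over B10 and 4.07 (3.14 to 5.2) in D2-mdx over DBA, and its ratios in satellite cells were about as large, at 4.70 and 4. The B10 side of the Ttn ratio rests on 5 UMIs, which lay in the cells with 3 and 4 Myog UMIs. Acta1 had ratios of 3 (1.96 to 4.32) and 3.52 (2.60 to 4.66), against 0.93 and 2.94 in satellite cells. Mylpf, the fast regulatory light chain, was at 0 UMIs in both controls, which bounds its log2 ratio at 2.76 or more in mdx and 4.74 or more in D2-mdx at a floor of 3 counts in the control. Actc1 and Tnnt2, the sarcomere genes of the rule, and Gm7325 were at 0 UMIs in at least 1 control, and the rule asks for them in part.

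All 13 control myocytes had 0 or 1 partner gene after thinning, so the comparison was repeated with the 67 mdx and 106 D2-mdx myocytes of the same classes, a choice made after seeing the data. Ttn kept its ratios at 4.10 (2.87 to 5.73) in mdx and 3.72 (2.79 to 4.85) in D2-mdx. Acta1 did not, with 54.3 CPM in mdx against 57.9 in B10, a log2 ratio of -0.09 (-1.24 to 1.29), whereas in D2-mdx it remained at 1.98 (1.04 to 3.12). Of the 9 Acta1 UMIs in DBA, 8 came from 1 cell. In the D2-mdx class with 1 partner gene, 1 cell held 170 of 397 Acta1 UMIs. Klhl41 had 24.8 CPM in B10, 12.5 in these mdx cells, 0 in DBA and 19.8 in these D2-mdx cells. Tnni1 had 0 CPM in both controls and 7.31 and 4.08 CPM in these DMD cells. The count of thin filament and Z disc genes at least 2-fold higher went from 8 of 15 to 3 of 11 in mdx and from 11 of 15 to 7 of 11 in D2-mdx. Over all genes tested in the matched classes, 354 of 3422 were at least 2-fold higher in mdx and 422 of 3243 in D2-mdx. Cdkn1c was at a log2 ratio of 1.35 (1.21 to 1.5) in mdx over B10 and -0.26 (-0.36 to -0.15) in D2-mdx over DBA among all myocytes, and at 0.31 (0.16 to 0.46) and -1.06 (-1.17 to -0.95) in the matched classes. The B10 cells with 3 and 4 Myog UMIs held only 2 each of the 399 Cdkn1c UMIs, at depths of 19930 and 23264 UMIs. Both cells lower the B10 level, and the sign of the small matched ratio in mdx without them was not tested. Mylk4 had log2 ratios of 3.14 and 2.70 between the upper and lower classes in mdx and D2-mdx, yet was lower in the matched DMD cells, at -3.48 (-4.47 to -2.53) and -2.16 (-3.32 to -0.87).

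The ratio of mdx over B10 shares no library with that of D2-mdx over DBA, and genes past the fold in both, each with its counting interval on the same side of 0, were counted after the data were seen. Of 2774 genes outside the rule measured in both, 73 were higher in both, which is 42.4% of the 172 higher in mdx and 32.0% of the 228 higher in D2-mdx. A further 89 were lower in both, which is 40.6% of 219 and 38.5% of 231. The higher genes included sarcomere genes (Ttn, Neb, Acta1, Myl1, Mylpf, Tnni1, Tnni2, Tnnt3, Tpm1, Tpm2, Klhl41), the inhibitors Id1, Id2 and Id3, Cdkn1a, the transcription factor Mef2a, which drives muscle genes, and S100a4, S100a6, S100a10, S100a11, Anxa2, Lgals3 and Vim. Id3 had ratios of 1.93 (0.88 to 3.25) and 2.26 (1.02 to 3.89), from 57.9 to 220 CPM and from 34.9 to 167 CPM. Vim, the intermediate filament vimentin, had ratios of 1.67 (1.34 to 2.03) and 4.21 (3.71 to 4.77), against 2.07 and 2.31 in satellite cells. Lgals3, galectin-3, was at 0, 230, 48.8 and 605 CPM in B10, mdx, DBA and D2-mdx, and 2.51 to 4.04 higher on the log2 scale in the satellite cells of DMD libraries too.

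Lower in both DMD libraries were Meg3, Col15a1, Col4a1, Lamc1, Fgfr1, Megf10, Sox8 and Egr2 among others. Meg3, an imprinted long noncoding RNA, was detected in 6 of 6 B10 and 7 of 7 DBA myocytes but in 56 of 172 mdx and 37 of 180 D2-mdx myocytes, at 1967, 74.1, 474 and 44.3 CPM. Its log2 ratios were -4.73 (-5.01 to -4.46) in mdx and -3.42 (-3.85 to -2.98) in D2-mdx, against -2.25 and -2.64 in satellite cells. Of the 68 Meg3 UMIs in DBA myocytes, 44 came from 1 cell, and without it the level was 196 CPM. Col15a1, a basement membrane collagen, was at 438, 23.0, 105 and 9.54 CPM, with ratios of -4.25 (-4.80 to -3.70) and -3.46 (-4.41 to -2.44), while its ratios in satellite cells were -0.48 and -1.04. Col4a1, a chain of collagen IV, had ratios of -1.98 (-2.60 to -1.30) and -1.86 (-2.45 to -1.22), against 0.39 and 0.03 in satellite cells. Lamc1, a chain of laminin, had ratios of -2.58 (-3.16 to -1.96) and -2.14 (-2.67 to -1.58). Megf10, a receptor of satellite cells, had ratios of -1.06 (-1.51 to -0.57) and -1.49 (-2 to -0.93).

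Quiescence genes were at least 2-fold lower in mdx than in B10 for 7 of 13, with none higher, and in D2-mdx than in DBA for 3 of 13, with 2 higher. Inhibitors of myogenic factors were at least 2-fold higher for 3 of 6 in mdx, with 1 lower, and for 3 of 5 in D2-mdx. Of the myogenic regulators outside the rule, 1 of 11 was higher and 2 lower in mdx, and 1 of 9 was higher and 1 lower in D2-mdx. Immediate early genes were lower in mdx than in B10 for 12 of 21 genes and higher for 2, and in D2-mdx than in DBA lower for 5 of 19 and higher for 3. Of the 2348 immediate early UMIs in B10 myocytes 851 came from 1 cell, and without it 8 of 20 genes were lower and 4 higher in mdx. Zfp36, which destabilizes messenger RNAs of the acute response, had a ratio of -3.6 (-4.03 to -3.15) in mdx and -1.07 (-1.71 to -0.37) in D2-mdx. The same cell held 47 of the 68 Zfp36 UMIs in B10, and without it the ratio in mdx was -2.18 (-2.85 to -1.44). Matrix genes were at least 2-fold lower for 5 of 11 and higher for 2 in mdx, and higher for 9 of 15 and lower for 3 in D2-mdx, and the difference between the backgrounds was not tested. At the ends of the rankings stood also Zfp367, a transcription factor gene, with -4.52 (-6.13 to -2.91) in mdx over B10 from 8 UMIs in each, and in D2-mdx over DBA Tmem100, with -5.82 (-7.92 to -4.06), and the noncoding AY036118, with -3.53 (-3.80 to -3.26) and -2.66 in satellite cells. Gm42418, a nuclear transcript that overlaps ribosomal RNA, was at 26106 CPM in B10 myocytes, but 2714 of its 3158 UMIs came from 1 cell, and without it B10 stood at 4517 CPM against 1837, 5500 and 1014 CPM in mdx, DBA and D2-mdx.

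The genetic background was compared between the controls and between the DMD libraries. Of 3400 genes, 10.1% were at least 2-fold higher and 16.7% at least 2-fold lower in DBA than in B10 myocytes, 26.8% in all. The lowest of the named genes were those of the immediate early response, Klf4 with -4.53 (-7.63 to -2.58), Atf3 with -3.86 (-5.79 to -2.41) and Dusp1 with -2.83 (-3.59 to -2.14), beside the gene copies. Of their B10 UMIs, 34 of 39, 43 of 49 and 51 of 120 came from 1 cell for each gene, and without it B10 stood at 50.9, 60.0 and 691 CPM against 13.9, 27.9 and 139 CPM in DBA. Without the cell that held the most immediate early UMIs, the ratio of Atf3 was -1.11 (-3.38 to 0.97), with an interval that includes 0, and 5 of 20 instead of 8 of 21 immediate early genes were lower. The mdx and D2-mdx myocytes, with similar cell numbers, differed past the fold for fewer genes, with 2.57% of 2923 genes higher and 1.81% lower in D2-mdx. The shares of the 2 pairs rest on unequal depth. Myocytes of B10 and DBA held 120970 and 143451 UMIs, and those of mdx and D2-mdx 2780280 and 2936008. Past the fold and with intervals apart from 0, 82 of 2579 genes measured in both pairs were higher and 153 lower in DBA over B10. In D2-mdx over mdx, 32 were higher and 37 lower. These counts were made after the data were seen. Matrix genes were at least 2-fold higher in D2-mdx than in mdx for 4 of 13, and growth and secreted factors for 4 of 15, with 1 lower. Of 8 myogenic regulators outside the rule, 18 genes of oxidative phosphorylation, 9 of quiescence and 5 inhibitors, 0 were past the fold, which at a background of 4.38% is no result about these lists. Of the rule genes, Actc1 had a log2 ratio of -1.57 (-1.65 to -1.5) and Myog of -0.66 (-0.70 to -0.62) in D2-mdx over mdx.

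Of the genes at the ends of these rankings, some differed by background in all cells. Gm10260, Gm10709 and Gm8730 were at 721, 1099 and 1850 CPM in D2-mdx against 0.36, 1.80 and 118 CPM in mdx myocytes, with ratios of 10.97, 9.26 and 3.97, and in satellite cells of 9.04, 9.16 and 3.93. Rpl29, a ribosomal protein gene, had a ratio of -3.98 in myocytes and -3.91 in satellite cells, and Tpm3-rs7 ratios of 6.34 and 6.28. In DBA over B10, Gm10709 and Gm8730 had ratios of 7.54 and 6.80, Gm10260 of at least 4.87, Gm10076 of 2.69 and Rpl29 of -3.03, and Gm10036 of at most -3.62. Several of these resemble ribosomal protein genes or other near-identical copies, whose reads cannot be assigned with certainty, and their differences were of similar size in satellite cells.

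Homer2 differed by background in myocytes far more than in satellite cells, and Hjurp differed more in D2-mdx over mdx. For Hjurp in DBA over B10, the interval in myocytes includes the ratio in satellite cells. Homer2, a scaffold protein of calcium signaling at the synapse and in muscle, was at 132, 82.7, 6.97 and 3.75 CPM in B10, mdx, DBA and D2-mdx. It was detected in 84 of 172 mdx and 8 of 180 D2-mdx myocytes, with a ratio of -4.46 (-5.49 to -3.6) in D2-mdx over mdx and -4.25 (-9.64 to -1.56) in DBA over B10, while satellite cells gave -0.40 and -0.52. Hjurp, the chaperone that loads the centromeric histone, was at 82.7, 84.9, 6.97 and 7.49 CPM, in 97 of 172 mdx and 20 of 180 D2-mdx myocytes, with ratios of -3.50 (-4.20 to -2.87) and -3.57 (-9.01 to -0.75), and -1.72 and -1.53 in satellite cells. Both genes were lower in D2-mdx than in mdx in each of the 5 classes of partner genes, Homer2 with at most 8.85 against at least 26.3 CPM and Hjurp with at most 15.3 against at least 45.5 CPM. In the controls they rest on 16 and 10 UMIs in B10, of which 9 and 5 came from 1 cell, and on 1 UMI each in DBA.

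Counted after the data were seen, 12 genes were lower past the fold in both DBA over B10 and D2-mdx over mdx with their intervals below 0, of 2579 measured in both, and 10 were higher in both. Beside Homer2 and Hjurp the lower genes included Atp2a1, Mylk4, Lmod2, which encodes an actin nucleator of the sarcomere, and Sspn. Atp2a1 had ratios of -1.98 (-2.83 to -1.20) in DBA over B10 and -1.29 (-1.44 to -1.13) in D2-mdx over mdx, against -0.73 and -0.84 in satellite cells. Of the 60 Atp2a1 UMIs in B10, 33 came from 1 cell, and the ratio without it was not computed. The higher genes included Lpl, lipoprotein lipase, with ratios of 3.21 (1.54 to 5.56) and 1.69 (1.26 to 2.13), and the contractile genes Myl9 and Tagln. By their ratios and intervals, the gene copies Gm10709, Gm8730 and Gm10260 also met the limits for the higher genes, and Rpl29 those for the lower. In satellite cells, the Lpl ratio in DBA over B10 was 3.77. Lpl was at 2014 CPM in satellite cells of DBA and 230 CPM in its myocytes.

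Spp1, which encodes the secreted protein osteopontin, followed the gene copies in the ranking of D2-mdx over mdx. It was at 21.9 CPM in mdx and 385 CPM in D2-mdx myocytes and at 0 UMIs in both controls, with a ratio of 4.13 (3.76 to 4.53) against 2.47 in satellite cells. After thinning it was detected in 28.3% of D2-mdx (21.9 to 35.5%) and 3.49% of mdx myocytes (1.29 to 7.44%), beside 15.1% and 6.93% of cells of another type. It was found in 88 of 180 D2-mdx cells, and the highest cell held 120 of 1129 UMIs, without which the level was 349 CPM. Along the partner genes Spp1 was at 428, 557, 338, 69.0 and 209 CPM in D2-mdx. Without the cells that carried markers of another type, its level in D2-mdx was 403 CPM, and the part of free RNA in it was not tested.

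Igf1, insulin-like growth factor 1, was at 99.2, 60.8, 132 and 10.9 CPM in B10, mdx, DBA and D2-mdx, a ratio of -2.48 (-3.07 to -1.93) in D2-mdx over mdx, while satellite cells had 59.6 CPM in mdx and 87.0 in D2-mdx. Cdkn2a, which encodes p16 and p19ARF, was at 0 UMIs in both controls, 44.6 CPM in mdx and 109 CPM in D2-mdx, in 55 of 172 and 98 of 180 myocytes, with satellite cells at 66.8 and 91.0 CPM. Mylpf was at 168 CPM in mdx and 559 CPM in D2-mdx, but 253 of its 468 UMIs in mdx came from 1 cell. Without the highest cell of each library it was at 77.9 and 401 CPM. After thinning, Mylpf was detected in 9.30% of mdx and 26.1% of D2-mdx myocytes, against 4.26% and 7.72% of cells of another type.

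Retnla and Wfdc17, both genes of macrophages, were the lowest in D2-mdx over mdx beside those named, with ratios of -5.75 and -3.93. Of the 612 Retnla UMIs in mdx myocytes 528 came from 1 cell, as did 184 of the 202 UMIs of Wfdc17. Without the 8 mdx and 14 D2-mdx myocytes that carried 5 or more UMIs of another type's markers, Retnla in mdx went from 220 to 4.57 CPM and Wfdc17 from 72.7 to 3.04 CPM.

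**Figure D5:**
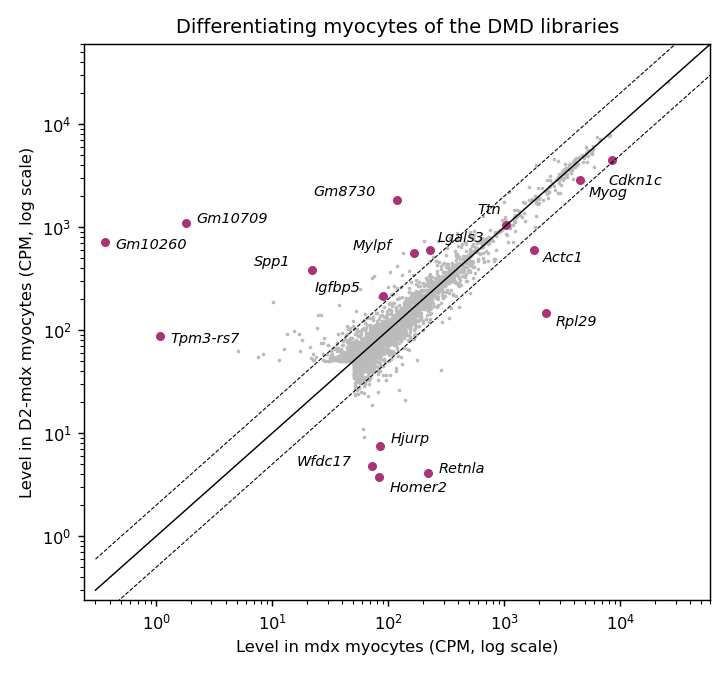
Level of each gene with at least 50 CPM in 1 of the 2 DMD libraries (CPM of summed UMIs, log scales), mdx on the x axis and D2-mdx on the y axis. The solid line is equality and the dashed lines are 2-fold, outside which 4.38% of the 2923 genes lie, and Spp1, Homer2 and Hjurp are among the labelled genes there.

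Markers of mature fibres were low next to the sarcomere genes of the myocytes. The list (Ckm, Pvalb, Myh4, Myh1, Tnnt3, Tnnc2 and Atp2a1) summed to 496, 522, 132 and 389 CPM in B10, mdx, DBA and D2-mdx, and Atp2a1 gave all of its UMIs in B10. Pericyte markers were at 24.8, 21.6, 27.9 and 88.6 CPM and erythrocyte markers at 8.27, 31.7, 20.9 and 49 CPM. Endothelial markers were at 0, 29.1, 0 and 4.43 CPM, glial markers at 0, 27.3, 0 and 56.9 CPM, and fibroblast markers at 0 except for 2.04 CPM in D2-mdx. White blood cell markers were at 0, 218, 0 and 371 CPM, of which 507 of 605 UMIs in mdx and 887 of 1088 in D2-mdx came from 1 cell each. The part of these cells in the ratios of genes other than those given without them was not tested.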

How the data were processed

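Cells of 1 scRNA-seq library per strain were counted by the authors with Cell Ranger 3.0.1 on mm10, as their methods and the submitters' processing notes give. The deposited values are raw UMI counts per gene and barcode (unit: counts), without normalization. From these counts, 20850 of 27425 barcodes were kept (1000 to 5000 genes, and a mitochondrial share of UMIs up to 8%), and myocytes were chosen with at least 3 Myog UMIs and 1 partner UMI. Predicted doublets (Scrublet, with an expected share of 0.008 per 1000 cells) were counted and not removed. UMIs were summed over the cells of a library and divided by their total to give CPM. With 1 library in a group no test was run. Between libraries, genes with at least 50 CPM in either group were compared and called past the fold at a log2 ratio of 1. Levels and shares are given with exact 95% intervals, and a level of 0 is bounded by 3 counts. Such intervals and floors cover counting error only. Shares of cells were taken after thinning each cell to 3000 UMIs, which left out 36 B10 satellite cells and 5 B10 cells of another type.

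Against satellite cells, the named genes were the 10 with the largest and the 10 with the smallest log2 ratios in the library where each was nearest to 0, among genes with at least 100 CPM. A gene of this ranking is not reported here. Between libraries they were the 5 furthest from 0 in each direction by the interval bound nearest to 0. Any other gene is a member of a list or is said to have been chosen after its values were seen. The members, gene lists and comparisons were chosen with earlier results of these data known. The alternatives tried were other limits on cells and Myog, no partner gene, other thinning depths, other CPM minimums, and TMM (edgeR 4.0.16) or DESeq2 1.42.0 size factors, which were used only to scale libraries. Leaving out single cells with many UMIs of a gene or list was chosen after seeing the data. The scripts (python 3.11.15, numpy 2.4.6, scipy 1.17.1, pandas 2.3.3, scanpy 1.11.5) were tested on simulated data.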

Additional observations from a re-analysis of the deposited data

Results flagged for a closer look

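Beyond the upper limit of 5000 genes lay 33 mdx and 89 D2-mdx cells that otherwise met the rule, against 0 in B10 and 2 in DBA, and they were flagged because no comparison above uses them. Their median depth was 48115 UMIs in mdx and 45340 in D2-mdx. Mki67 or Top2a was detected in 26 of the 33 and 57 of the 89 cells, Pax7 in 26 and 56, and 5 or more UMIs of another type's markers in 4 and 26. The mitosis list summed to 1728 CPM in mdx and 1790 CPM in D2-mdx, against 207 and 441 CPM in the myocytes within the limit. When doublets were predicted from 500 genes with no upper limit, 2 of the 33 mdx and 7 of the 89 D2-mdx cells were among them. The part of doublets that this prediction missed was not tested.

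The ratios of DMD over control had opposite signs in the B10 and DBA backgrounds for 35 of the 2779 genes measured in both pairs, with both counting intervals apart from 0, and 7 of the 35 were past the fold in both. The difference between the backgrounds was not tested, since each group is 1 library. Cdkn1c was among them, at 1.35 (1.21 to 1.5) in mdx over B10 and -0.26 (-0.36 to -0.15) in D2-mdx over DBA. In B10, the cells with 3 and 4 Myog UMIs held only 2 each of the 399 Cdkn1c UMIs, at depths of 19930 and 23264 UMIs. Both cells lower the B10 level of Cdkn1c, and its ratio without them was not computed. Klf4 had log2 ratios of -2.36 and 2.02 and Atf3 of -1.25 and 1.92, both genes of the immediate early response. In B10, 34 of the 39 Klf4 UMIs and 43 of the 49 Atf3 UMIs came from 1 cell for each gene, and without it B10 stood at 50.9 and 60.0 CPM against 62.6 and 171 CPM in mdx, so that the sign of both in mdx over B10 rests on 1 cell for each gene. Tuba1a, an alpha tubulin, had -1.10 and 1.12, Mybpc1, the slow myosin binding protein C, 2.90 and -1.06, and Nifk 1.55 and -1.63.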

How the results depend on the processing

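With each cell thinned to 3000 UMIs before the rule, the share of myocytes was 0.0424%, 2.16%, 0.0297% and 2.17% in B10, mdx, DBA and D2-mdx. With no partner gene required it was 3.18%, 0.623% and 3.90% in mdx, DBA and D2-mdx, over cells with a Pax7, Myf5, Myod1 or Myog UMI it was 3.20% in mdx and 3.75% in D2-mdx, and from 500 genes with no upper limit it was 4.11% in D2-mdx. The count of genes past 2-fold in mdx over B10 was 812, and 1251 from 5 Myog UMIs, 327 at 100 CPM and 5511 with no minimum. It was 750 in D2-mdx over DBA, and 439 with no upper limit on genes, 352 at 100 CPM and 5530 with no minimum. It was 911 in DBA over B10, and 323 and 2288 at the same minimums, and 128 in D2-mdx over mdx, and 70 and 2268. Pax7 was detected in 3.49% of mdx and 7.78% of D2-mdx myocytes at 2000 UMIs, and in 25.6% and 38.3% without thinning. Mki67 or Top2a was detected in 10.5% and 26.7% without thinning, and in 13.4% of D2-mdx myocytes at 5000 UMIs. The other 75 values of the comparisons stayed within 1.5 times or their intervals. They include the counts of genes past 2-fold over satellite cells and the summed sarcomere ratio along the partner genes. Ratios of single genes over satellite cells or along the partner genes were not recomputed under these alternatives. Of 320 values of 40 ratios of single genes between libraries, with some genes in more than 1 pair, 272 stayed, 47 moved and 1 turned. The turned value was Retnla in mdx over B10, at -2.44 without the cells of another type's markers, an alternative chosen after seeing the data. Retnla had 0 UMIs in B10 myocytes, so this value sets 4.57 CPM in mdx against the floor of 3 counts in B10. No direction can be read from it. With no upper limit on genes, the bounds of Mylpf and Spp1 in D2-mdx over DBA went from 4.74 and 4.20 to 1.90 and 0.703. No paired analysis was possible because each strain has 1 library with no replicate number. The 6 B10 and 7 DBA myocytes limit every ratio against a control.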

Other observations

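Over the 352 myocytes of mdx and D2-mdx, the main axes of variation among 1000 genes took 3.14% and 2.37% of the variance. The first ran from Anxa2, S100a10, S100a4 and Lgals3 to the immediate early genes Fos, Egr1 and Junb. The second ran from Acta1, Chchd10, Plin3, Klhl41 and Fndc5 to Junb, Fos, Egr1 and Peg3. The correlation with Myog over cells was -0.38 for the first and 0.51 for the second, over cells that share their library and depth. Igfbp5 was at 0 UMIs in B10 and 1 UMI in DBA myocytes, with 89.9 CPM in mdx and 216 CPM in D2-mdx, while satellite cells held 1124, 487, 945 and 731 CPM.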
